A study of Bos taurus with 8 samples.

Results

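Transcripts of 10 enzymes of serine, glycine and one-carbon metabolism were followed in bovine embryonic stem cells (bESCs), the pluripotent cells grown out of blastocysts. They were chosen by gene name for their place in the pathway, and all 10 were found among the 32640 genes of the count table. PHGDH, PSAT1 and PSPH make serine. SHMT1, SHMT2 and GLDC handle serine and glycine, MTHFD1, MTHFD2 and MTHFD1L belong to the folate cycle, and MAT2A serves the methionine cycle. The RNA came from 4 lines, A, C, D and E, each sequenced from cells kept at 5% O2 on MEF, the mouse embryonic fibroblasts that serve as feeders, and again after transfer to vitronectin without feeders. Each condition therefore has 4 libraries, 1 per line. All lines carry the genotype label XX and came from whole embryos at the early or full blastocyst stage, without the stage of each line being given. MEF cultures were taken at passage 15 to 17 and feeder-free cultures at passage 20 to 22. Feeders, matrix and passage therefore changed together and cannot be told apart. The paper refers to a list of sequencing batches and states that it applied no batch correction. The batch of each library was not used here, so its overlap with condition was not checked. The sample titles write the medium as NBFRA in both conditions, the growth notes as NBFR, and the paper's methods add Activin A for feeder-free culture.

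Serine is made from the glycolytic intermediate 3-phosphoglycerate by a chain of enzymes, PHGDH, PSAT1 and PSPH in that order. SHMT enzymes then split serine into glycine and a carbon unit carried by folate, which the MTHFD enzymes pass on for the making of purines and thymidylate. GLDC releases a further carbon unit from glycine, and MAT2A turns methionine into S-adenosylmethionine, the methyl donor for DNA and histones. Pluripotent stem cells are known for a high demand on this pathway, and their culture media supply serine and glycine. The NBFR medium described for these lines contained a supplement of non-essential amino acids, which includes both.

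Library totals were 44268717 to 54296425 counts on MEF and 49671478 to 102351560 in feeder-free conditions, the highest being line D. Levels are given as CPM (counts scaled to a common library size by TMM), and they are compared for one gene between libraries, not between genes, since transcript lengths were not used. In bulk RNA, fewer cells of a type and less RNA per cell cannot be told apart. All 10 pluripotent cell markers listed, among them POU5F1, SOX2 and NANOG, were detected in every library, with a summed level of 5973 to 6571 CPM on MEF and 5104 to 5687 CPM in feeder-free conditions. With lines paired, 5 of the 10 passed the adjusted p alone with lower levels in feeder-free conditions, as against 8.12 percent of all genes, and OTX2 was called lower (log2 fold change -0.66, edgeR adjusted p = 0.00495). Of 22 fibroblast markers listed, the 20 tested summed to 1178 to 1596 CPM on MEF and 850 to 2571 CPM in feeder-free conditions, so the ranges overlapped. VIM (528 to 1157 CPM) and COL1A1 (115 to 1033 CPM) were the highest of them in every library, also without feeders. The sum left out TWIST2 and FAP, which had too few counts to be tested. TWIST2 had 2 to 32 counts in the MEF libraries and 0 in every feeder-free one, and FAP had at most 6 and 0. COL1A2 and PRRX1 were lower in feeder-free conditions and COL3A1 and POSTN higher in the fit paired by line. The part of feeder cells in the levels below was not tested.

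PHGDH, the enzyme that commits 3-phosphoglycerate to serine, was present in 2 lines and all but missing in the others, in both conditions. On MEF it had 2074 counts in line A and 2191 in line E, against 0 in line C and 2 in line D. In feeder-free conditions it had 1783 counts in line A and 3113 in line E, against 2 in line C and 4 in line D. Every library of lines A and E thus lay far above every library of lines C and D. In CPM, lines A and E stood at 49.8 and 49.6 on MEF and at 35.8 and 59.9 in feeder-free conditions. The count of 0 in the MEF library of line C allows a level of up to 0.0545 CPM, taken at 3 counts. The 95% exact Poisson intervals reached 0.0670 CPM in that library, 0.149 CPM in the MEF library of line D, 0.136 CPM in the feeder-free library of line C and 0.10 CPM in that of line D, and cover counting error only. In the assembly ARS-UCD2.0, used for all positions here, PHGDH spans chr3:23565152-23596343 and overlaps no other annotated gene.

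The ratios of PHGDH between conditions were small beside the gap between lines. Its log2 ratio of feeder-free over MEF was -0.48 in line A and 0.27 in line E, and no ratio is given for lines C and D, where counts were at or near 0. In the fit on condition alone the log2 fold change was -0.06 with a standard error (SE) of 2.04, and edgeR's quasi-likelihood test, used throughout, gave an adjusted p of 0.992. Its 95% interval of -4.64 to 4.52 carries the spread between lines. With lines paired the interval was -0.59 to 0.47. A test of the line terms of that fit, added after the values of PHGDH had been seen, gave an adjusted p of 1.72e-06 for a difference between lines (edgeR's quasi-likelihood test over 15744 genes). The same test passed in 1865 genes, 11.8 percent of those tested. When the sum of squares of the 8 log2 CPM values was divided, 99.6 percent lay between lines for PHGDH, the 11th highest share of the 15744 genes.

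**Figure D1:**
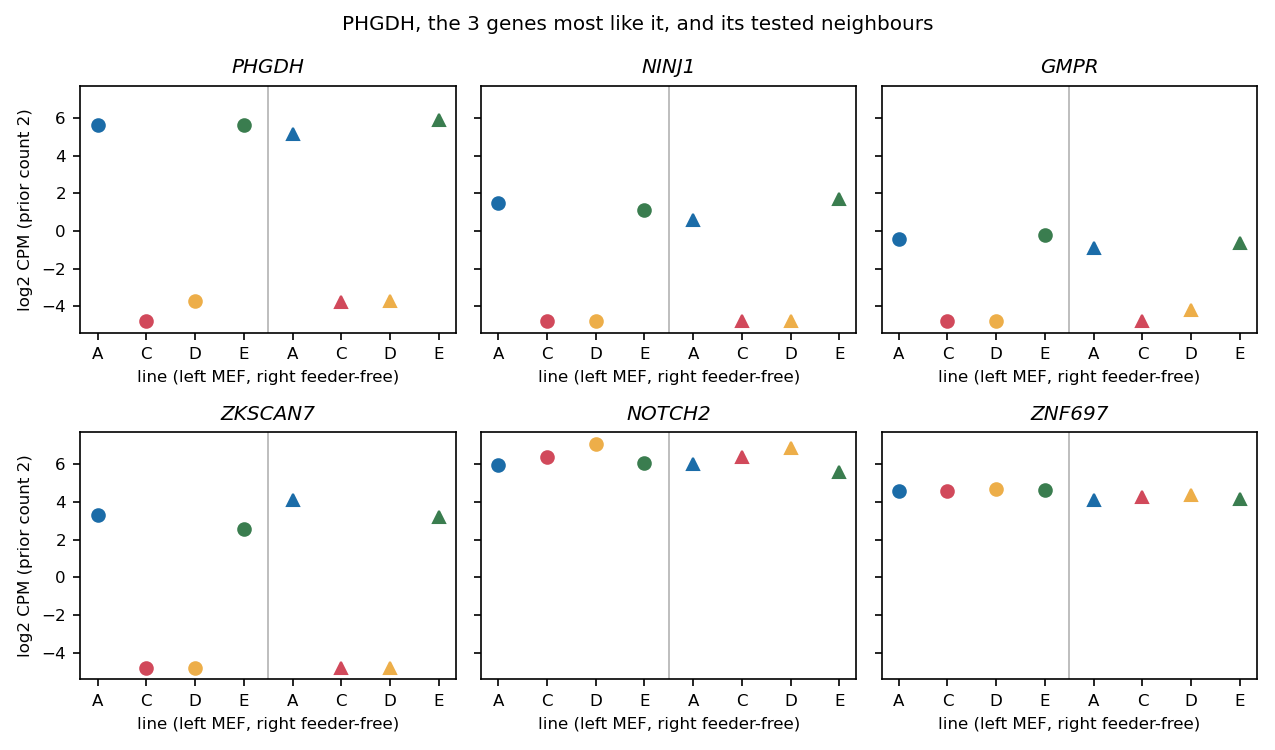
Log2 CPM (prior count of 2) of PHGDH, of NINJ1, GMPR and ZKSCAN7, and of the neighbours NOTCH2 and ZNF697. NINJ1, GMPR and ZKSCAN7 are the genes most like PHGDH when genes with LOC symbols are left out. Circles are MEF libraries on the left, triangles feeder-free ones on the right, with 1 colour per line. PHGDH and the 3 genes like it sit high in lines A and E and at the bottom in C and D, whereas both neighbours are present in all 8 libraries.

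Genes near PHGDH did not share the pattern. Of 12 other genes annotated within 250 kb, 3 had counts high enough to be tested. NOTCH2, a receptor of the Notch pathway, had 62.3, 84.8, 137 and 68.6 CPM in lines A, C, D and E on MEF and 65.0, 85.5, 117 and 47.6 CPM in feeder-free conditions, so lines C and D were the highest. ZNF697 lay at 23.7 to 25.9 CPM on MEF and 17.3 to 20.8 CPM in feeder-free conditions, with lines C and D inside or above the range of A and E. The remaining one, LOC112445962, stayed under 0.8 CPM in every library.

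Across the 8 libraries, the genes whose log2 CPM ran closest to that of PHGDH were NINJ1 (Pearson r = 0.996), GMPR (r = 0.993) and ZKSCAN7 (r = 0.990). These values describe the likeness of 8 libraries from 4 lines and rest on the gap between lines. NINJ1, a membrane protein, had 73 to 168 counts in lines A and E and 0 in all 4 libraries of lines C and D. GMPR, a guanosine monophosphate reductase, had 25 to 36 counts in lines A and E and at most 2 in C and D. ZKSCAN7, a zinc finger gene, had 259 to 847 counts in lines A and E and 0 in C and D. They lie on chromosomes 8, 23 and 22, away from PHGDH. With limits set after the values were seen, 32 of 15744 genes were under 0.1 CPM in both libraries of a line and at 5 CPM or more in both libraries of another, and 3 of them (PHGDH, ZKSCAN7 and LOC100335190) were off in C and D and on in A and E. Others of the 32 had the reverse, off in A and E and on in C and D.

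PSAT1, the aminotransferase of the second step, moved one way in 3 lines and the other way in line E. On MEF it had 17.0, 9.19 and 7.19 CPM in lines A, C and D and 41.8 CPM in line E. In feeder-free conditions it had 26.1, 18.6 and 27.7 CPM in lines A, C and D and 15.5 CPM in line E. Line E was thus the highest of the MEF libraries and the lowest of the feeder-free ones, and the conditions overlapped. The ratio of feeder-free over MEF was 1.53 in line A, 2.02 in C and 3.85 in D, but 0.371 in line E. The log2 fold change was 0.23 (SE 0.50, edgeR adjusted p = 0.847) on condition alone and 0.57 (SE 0.44, edgeR adjusted p = 0.402) in the paired fit. Without line E, the paired log2 fold change was 1.20 (SE 0.24, edgeR adjusted p = 0.0251), while it was 0.55 without line A, 0.40 without line C and 0.0906 without line D, with adjusted p of 0.536 to 0.916. PSAT1 lies on chromosome 8 from 54216912 to 54245206.

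PSPH, the phosphatase that ends serine synthesis, also went up in 3 lines and down in line E. On MEF it had 78.9, 67.0 and 62.4 CPM in lines A, C and D and 175 CPM in line E. In feeder-free conditions it had 121, 86.4 and 108 CPM in those lines and 74.4 CPM in line E. Again line E went from the top of the MEF libraries to the bottom of the feeder-free ones. The log2 fold change was 0.03 (SE 0.33, edgeR adjusted p = 0.978) on condition alone and 0.16 in the paired fit (adjusted p = 0.746), where it was 0.61 (SE 0.12, edgeR adjusted p = 0.0230) without line E. It was 0.0927 without line C, and turned to -0.0101 without line A and -0.0699 without line D. PSPH lies on chromosome 25 from 27697176 to 27727753.

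**Figure D2:**
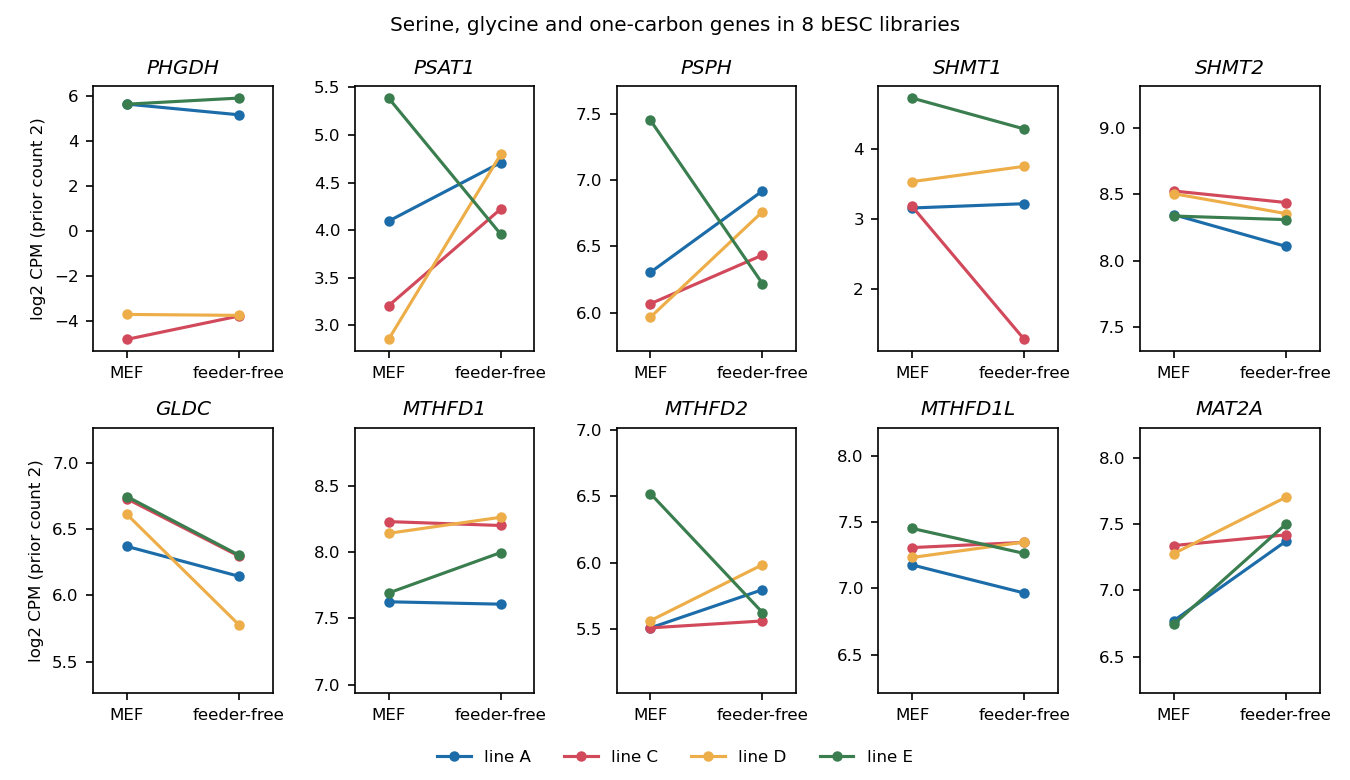
Log2 CPM (prior count of 2) of the 10 genes in each library, MEF on the left and feeder-free on the right of each panel, with a line joining the 2 libraries of each bESC line and an axis of its own for each gene. Line E (green) falls from the top for PSAT1, PSPH and MTHFD2 while the other lines go up, line C hardly so for MTHFD2. PHGDH splits by line in both conditions.

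SHMT1, the cytosolic serine hydroxymethyltransferase, differed between lines more than between conditions. On MEF it had 8.88, 9.02, 11.5 and 26.5 CPM in lines A, C, D and E, and in feeder-free conditions 9.27, 2.39, 13.4 and 19.5 CPM. Line E was highest in both conditions, and the feeder-free library of line C, with 127 counts, was lowest. The test of the line terms passed (adjusted p = 0.0401, edgeR's quasi-likelihood test), whereas the log2 fold change between conditions was -0.33 (SE 0.57, edgeR adjusted p = 0.800). With the feeder-free library of line C left out, the latter was 0.01, and without the MEF library of line E it was 0.18. The line test no longer passed without either library of line A or either library of line E, with adjusted p from 0.0609 to 0.139 (edgeR). The span of SHMT1, on chromosome 19 from 34321399 to 34350214, overlaps SMCR8, which had 23.3 to 49.0 CPM, and counting by strand is not described, so the low counts of SHMT1 are less certain.

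SHMT2, the mitochondrial form of the same enzyme, was among the steadiest of the 10. It had 326, 369, 364 and 323 CPM in lines A, C, D and E on MEF and 276, 347, 328 and 317 CPM in feeder-free conditions, lower in 4 of 4 lines by small amounts. The log2 fold change was -0.12 (SE 0.12, edgeR adjusted p = 0.603), with a 95% interval of -0.39 to 0.14. By the ranking used for PHGDH, the genes most like SHMT2 across the 8 libraries were SMARCA4 (Pearson r = 0.991), PRPF6 (r = 0.988) and XPO6 (r = 0.986). SMARCA4 is an ATPase of chromatin remodelling, PRPF6 a splicing factor and XPO6 a nuclear export receptor. SHMT2 lies on chromosome 5 from 56208140 to 56216259 and overlaps NDUFA4L2, a gene of 5.11 to 32.4 CPM.

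GLDC, the decarboxylase of the glycine cleavage system, was lower in feeder-free conditions in 4 of 4 lines. It had 82.7, 106, 97.7 and 107 CPM in lines A, C, D and E on MEF and 70.7, 78.6, 54.9 and 79.0 CPM in feeder-free conditions. Every feeder-free library lay below every MEF library, which held in this direction for 8.36 percent of all genes tested. The means were 98.4 ± 11.3 CPM (SD, n = 4) and 70.8 ± 11.3 CPM (SD, n = 4), and the log2 fold change was -0.48 (SE 0.15, edgeR adjusted p = 0.107). In the paired fit (replicate block) it was also -0.48 (SE 0.12, edgeR adjusted p = 0.0284), short of the fold threshold of 1.5, which is 0.58 on the log2 scale. The paired adjusted p was 0.187 without line D, 0.0996 without line C and 0.0556 without line E. GLDC lies on chromosome 8 from 38219953 to 38308310, and its ratio ran from 0.561 in line D to 0.855 in line A.

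None of the 3 folate enzymes, MTHFD1, MTHFD2 and MTHFD1L, passed the test between conditions. MTHFD1, the cytosolic trifunctional enzyme, had 197, 300, 282 and 207 CPM in lines A, C, D and E on MEF and 195, 294, 307 and 255 CPM in feeder-free conditions. Lines C and D were above A and E in both conditions, the reverse of the order of PHGDH. Of the sum of squares of MTHFD1, 90.4 percent lay between lines, and the line test fell just short (adjusted p = 0.0538, edgeR's quasi-likelihood test). It passed with no scaling, no filter, at least 10 counts in every library, or without either library of line E (edgeR adjusted p of 0.0244 to 0.0495). In the other settings it did not pass. Its log2 fold change between conditions was 0.09 (SE 0.19, edgeR adjusted p = 0.838), and the paired interval was -0.14 to 0.33.

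MTHFD2 is the mitochondrial dehydrogenase and cyclohydrolase that is low in most adult tissues and high in embryonic and tumour cells. Its directions were those of PSAT1 and PSPH, but line C hardly changed, with a ratio of 1.04. MTHFD2 had 45.5, 45.5 and 47.3 CPM in lines A, C and D on MEF and 91.9 CPM in line E. In feeder-free conditions it had 55.6, 47.2, 63.3 and 49.3 CPM in lines A, C, D and E. The MEF library of line E stood alone, and its feeder-free library lay inside the range of the others. The log2 fold change was -0.10 (SE 0.24, edgeR adjusted p = 0.869), and without the MEF library of line E it was 0.22 (SE 0.13, edgeR adjusted p = 0.399).

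MTHFD1L, the mitochondrial formate-producing synthetase, had 145, 158, 150 and 175 CPM on MEF and 125, 163, 163 and 154 CPM in feeder-free conditions. The fitted log2 change was -0.06 (SE 0.12, edgeR adjusted p = 0.847), with a 95% interval of -0.34 to 0.22. MTHFD1 lies on chromosome 10 from 76546517 to 76607077, MTHFD2 on chromosome 11 from 10423161 to 10475315 and MTHFD1L on chromosome 9 from 87978427 to 88160305. MTHFD2 overlaps SLC4A5, which had at most 3.92 CPM, and MTHFD1L overlaps 2 uncharacterized genes of at most 14 counts.

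MAT2A, which makes S-adenosylmethionine, had its higher level without feeders in 4 of 4 lines. It had 109, 162, 155 and 107 CPM in lines A, C, D and E on MEF and 165, 171, 208 and 181 CPM in feeder-free conditions. Every feeder-free library lay above every MEF library, as in 6.21 percent of genes tested in this direction. On MEF, lines A and E were well below C and D, and in feeder-free conditions the 4 lines were closer together. The means were 133 ± 29.1 CPM (SD, n = 4) and 181 ± 19.0 CPM (SD, n = 4), and the log2 fold change was 0.44 (SE 0.17, edgeR adjusted p = 0.164). In the paired fit (replicate block) it was 0.46 (SE 0.13, edgeR adjusted p = 0.0354), short of the fold threshold. Without line C, whose ratio was 1.06 against 1.34 to 1.69 in the others, the paired log2 fold change was 0.61 and passed both thresholds, while without line A, D or E the adjusted p was 0.0867, 0.124 and 0.0879.

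MAT2A lies on chromosome 11 from 49465580 to 49472218. By the ranking used for PHGDH, the genes most like it were SRSF6 (Pearson r = 0.992), CHRNA3 (r = 0.990) and NXF1 (r = 0.985) over the 8 libraries. SRSF6 is a splicing factor and NXF1 the main export receptor of messenger RNA. SRSF6 had 140, 206, 214 and 141 CPM in lines A, C, D and E on MEF and 223, 242, 305 and 250 CPM in feeder-free conditions, with lines A and E lowest on MEF as for MAT2A.

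**Figure D3:**
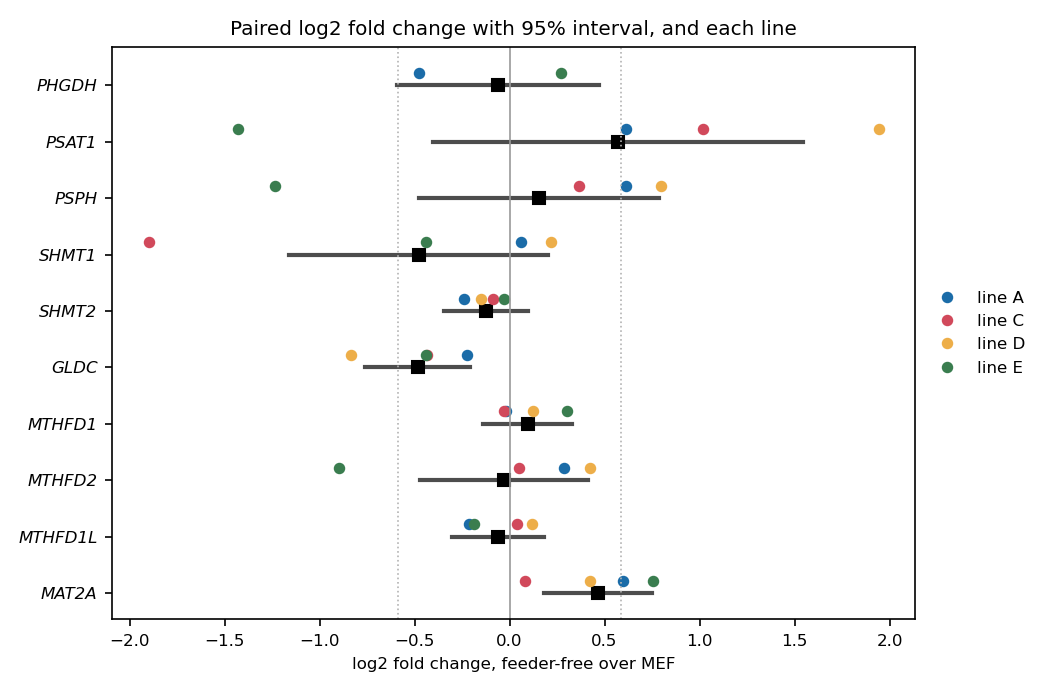
Log2 fold change of feeder-free over MEF for each gene: squares with bars are the paired estimate and its 95% interval, coloured points the 4 lines, and dotted lines the fold threshold of 1.5. Only the intervals of GLDC (below) and MAT2A (above) leave out 0, and line E stands to the left of the other lines for PSAT1, PSPH and MTHFD2; lines C and D are not drawn for PHGDH.

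On condition alone, 0 of the 10 genes passed the thresholds of an adjusted p below 0.05 and a 1.5-fold change, as against 1.73 percent of the 15744 genes tested (0.724 percent higher and 1.00 percent lower in feeder-free conditions). None passed the adjusted p alone, which 1.93 percent of all genes did, and 2 (GLDC and MAT2A) had an unadjusted p under 0.05, as against 21.6 percent (edgeR's quasi-likelihood test). With lines paired, 0 of 10 passed both thresholds in either direction, as against 5.52 percent of all genes higher and 4.53 percent lower. By the paired adjusted p alone, MAT2A was higher, as were 7.67 percent of all genes, and GLDC lower, as were 8.12 percent, 15.8 percent together. DESeq2 also called 0 of the 10, and 685 of all genes higher and 513 lower, and by its adjusted p alone GLDC passed on condition alone (0.0438). Their log2 fold changes on condition alone ran from -0.48 to 0.44 with a median of -0.06, beside a median of 0.01 over all genes tested. In the line test 2 passed, PHGDH and SHMT1. Between lines lay a median of 50.6 percent of the sum of squares of these genes and between conditions 6.13 percent, beside 49.5 and 18.8 percent over all genes tested.

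**Figure D4:**
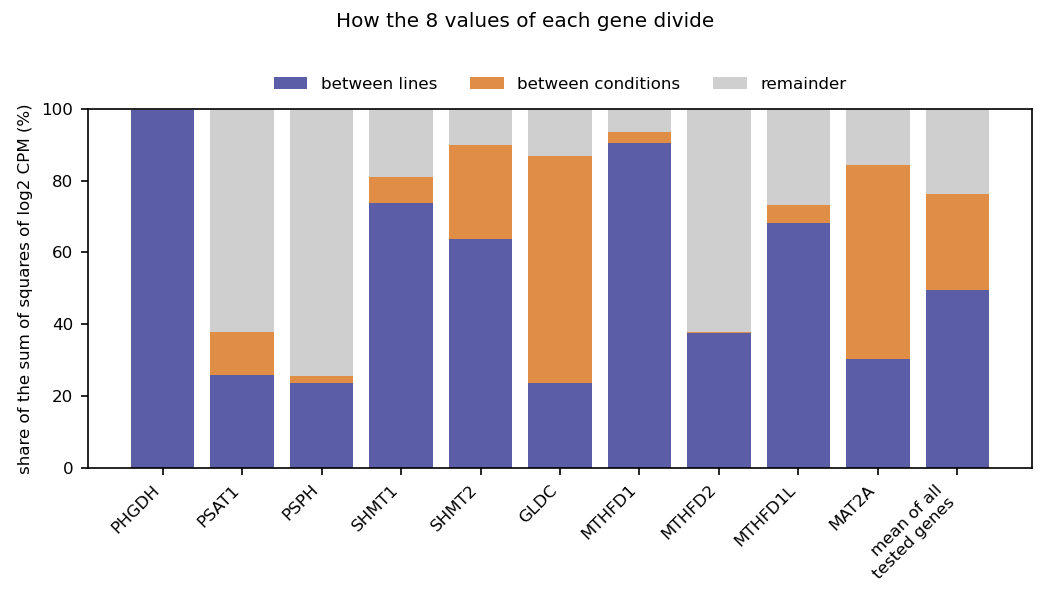
Share (%) of the sum of squares of the 8 log2 CPM values of each gene that lay between the 4 lines, between the 2 conditions, and in the remainder, with the mean over all 15744 tested genes in the last bar. PHGDH (99.6 percent) and MTHFD1 (90.4 percent) are nearly all line, and GLDC and MAT2A have the largest shares between conditions (63.2 and 54.0 percent). PSAT1, PSPH and MTHFD2 have over 62 percent in the remainder. The remainder holds both differing responses of the lines and scatter between libraries. No line has a repeat library within a condition, so these cannot be told apart.

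The 3 genes in which line E went against the others, PSAT1, PSPH and MTHFD2, were all higher in feeder-free conditions in lines A, C and D and lower in line E by the fold threshold or more. This pattern, noticed in these data, was present in 1.40 percent of the genes tested. In the wider list of 70 pathway genes described next, MTHFD2L, TRIB3 and SFXN3 showed it too, chosen here for that pattern. MTHFD2L, a relative of MTHFD2, had 18.3 CPM in the MEF library of line E and 2.56 to 4.51 CPM in the other MEF libraries, and in feeder-free conditions 10.5 CPM in line E and 3.39 to 6.90 CPM in the others. TRIB3, a pseudokinase induced when amino acids are short, had 19.5 CPM there and 7.75 to 12.2 CPM in the other MEF libraries, and 10.5 to 18.5 CPM in feeder-free conditions. ASNS, asparagine synthetase, was also highest in that library, at 468 CPM against 248 to 377 CPM on MEF and 371 to 428 CPM in feeder-free conditions. TRIB3 and ASNS belong to the ATF4 list, whose genes did not move together. SESN2 was also highest of the MEF libraries in that of line E (37.9 CPM). ATF4 (151 CPM), ATF5 (4.44 CPM) and CHAC1 (5.75 CPM) were lowest in it. DDIT3, NUPR1, CEBPB and VLDLR were not highest in it. The MEF library of line E had the highest level of 6 of the 10 genes and of 21 of the 65 wider genes tested, 32.3 percent, beside 30.3 percent over all genes tested.

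The wider list held other genes of glycine and threonine, folate, the methionine cycle and transsulfuration, transporters, purine synthesis and the amino acid response governed by ATF4. Of its 70 genes, 65 were tested, since FTCD, FOLR1, BHMT, NNMT and SLC38A4 had low counts. On condition alone 0 passed (edgeR), and 12 of 65 had an unadjusted p under 0.05, as against 21.6 percent of all genes. DESeq2 called 4 of them higher and 2 lower, and 685 and 513 of all genes. With lines paired, 3 of 65 were called higher and 2 lower, as against 5.52 and 4.53 percent of all genes tested. The median log2 fold change was 0.11, with 39 of the 65 above 0 and 26 below.

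ATF4, the transcription factor that induces serine synthesis and amino acid uptake genes when amino acids are short, had the lowest paired adjusted p of the list. It had 192, 225, 222 and 151 CPM in lines A, C, D and E on MEF and 299, 301, 378 and 313 CPM in feeder-free conditions. All feeder-free libraries lay above all MEF libraries, as in 6.21 percent of genes tested in this direction. Line E had the lowest level on MEF and the largest ratio, 2.07. The log2 fold change was 0.71 (SE 0.16, edgeR adjusted p = 0.0510) on condition alone, just short of the threshold. In the paired fit ATF4 rose by 0.72 on the log2 scale (SE 0.12, edgeR adjusted p = 0.00619), and it passed with each line left out in turn. Of the 10 genes of the ATF4 list, ATF4 was called higher and VLDLR lower in the paired fit. ASNS and TRIB3 had paired log2 fold changes of 0.16 and 0.19, with adjusted p of 0.489 and 0.627 (edgeR). DDIT3, also of that list, was higher in 4 of 4 lines with no overlap, as in 6.21 percent of all genes tested. Its paired log2 fold change was 0.87, short of a call (edgeR adjusted p = 0.0563). On condition alone, 7 of the 10 had log2 fold changes above 0 and 3 below.

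The other genes called in the paired fit were CTH, SLC38A1 and SRR. CTH, the last enzyme of transsulfuration, which makes cysteine, had 12.3, 19.6, 19.0 and 16.9 CPM in lines A, C, D and E on MEF and 21.6, 28.7, 34.4 and 27.6 CPM in feeder-free conditions. It rose in the paired fit by 0.73 on the log2 scale (adjusted p = 0.00660, edgeR), with no overlap between conditions, as in 6.21 percent of genes tested. SLC38A1, a sodium-coupled carrier of glutamine and other small neutral amino acids, rose from 27.5 to 42.6 CPM on MEF to 48.2 to 118 CPM in feeder-free conditions, by 1.00 on the log2 scale (adjusted p = 0.00836). SRR, the racemase that makes D-serine, had 10.8, 15.6, 18.5 and 18.2 CPM on MEF and 8.49, 11.4, 8.49 and 8.47 CPM in feeder-free conditions. Its paired log2 fold change was -0.76 (adjusted p = 0.0222), and it overlaps SMG6 and TSR1. VLDLR, a lipoprotein receptor of the ATF4 list, had a paired log2 fold change of -0.90 (adjusted p = 0.0204), from 9.28 to 14.5 CPM on MEF to 3.93 to 9.69 CPM.

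**Figure D5:**
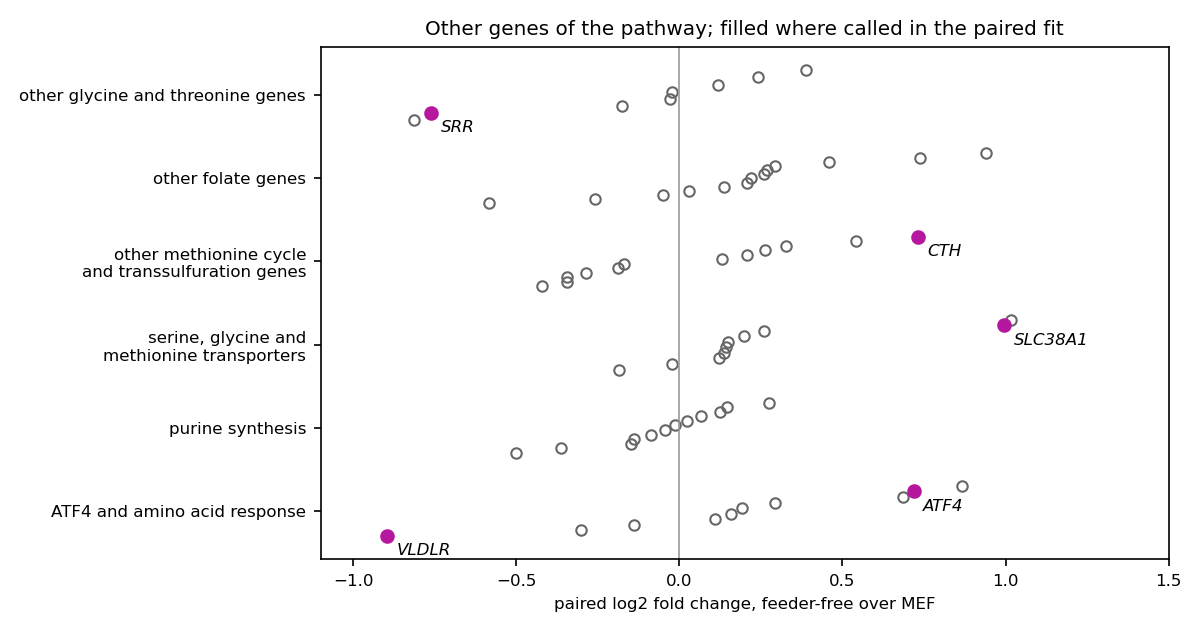
Paired log2 fold change of feeder-free over MEF for the 65 tested genes of the wider list, in 6 groups by role; filled points mark genes called in the paired fit. ATF4, CTH and SLC38A1 lie to the right and SRR and VLDLR to the left, and the purine synthesis and folate groups have no filled point.

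By group, 0 of 12 purine synthesis genes and 0 of 13 folate genes were called in the paired fit. The count was 1 of 8 among other glycine and threonine genes (SRR) and 1 of 12 in the methionine cycle and transsulfuration. It was 1 of 10 for transporters and 2 of 10 for the ATF4 list. Over all genes tested, 5.52 percent were called higher and 4.53 percent lower, so counts this small do not set the groups apart. TYMS, which makes thymidylate and overlaps ENOSF1, had a paired log2 fold change of 0.29. GMPS, the last step to GMP, which overlaps 2 uncharacterized genes, had a paired log2 fold change of -0.50 (adjusted p = 0.0131, edgeR), under the fold threshold. Every feeder-free library of GMPS lay below every MEF library, as in 8.36 percent of genes tested in this direction. MAT2B, the regulatory partner of MAT2A, went the other way from it, at -0.42 (adjusted p = 0.0313), with 61.5 to 77.4 CPM on MEF and at most 59.6 CPM in feeder-free conditions.

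Differences between lines passed the line test in 8 of the 65 wider genes, beside 11.8 percent of all genes tested. They were GCSH, MTHFD2L, ALDH1L1, CBS, SLC1A5, SLC38A2, GART and PFAS, named after their values were seen. Like MTHFD1, the purine enzymes GART and PFAS, the transsulfuration enzyme CBS and the neutral amino acid carriers SLC1A5 and SLC38A2 had both lines C and D above both lines A and E in each condition. The share of all genes tested with this order was not counted, so it is not read as a trait of these genes. Over all genes, C and D were the pair of lines that differed least (chi-square per degree of freedom 43.7 on MEF and 112 in feeder-free conditions). SLC1A5 had 310 and 224 CPM in lines A and E on MEF and 455 and 448 CPM in C and D, and in feeder-free conditions 265 and 276 CPM against 388 and 470 CPM. GART had 84.4 and 96.4 CPM in lines A and E on MEF and 133 and 130 CPM in C and D. GCSH, a carrier protein of the glycine cleavage system, had the opposite order, with 107 and 85.5 CPM in lines A and E and 76.8 and 65.6 CPM in C and D on MEF.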

How the data were processed

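RNA-seq of 8 libraries was analysed, 4 on MEF and 4 in feeder-free conditions, grouped by their titles. The authors deposited raw counts per gene: after trimming by Trimmomatic, STAR placed the reads on the cow assembly ARS-UCD2.0, Picard took out optical duplicates, Samtools took out alignments of low mapping quality, and genes were counted with featureCounts (Subread 1.6.2 in the submitters' processing notes), with strand not stated. The methods also describe removing reads of a pure MEF sample. RNA was extracted with Trizol per the labels and with RNeasy kits per the paper's methods.

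No change was made to the deposited counts, but 3 of 32640 genes had empty cells and were left out, and filterByExpr kept 15744. Differential expression was fitted over all of them with edgeR 4.0.16 in R 4.3.3 (TMM, glmQLFit, glmQLFTest, condition alone, Benjamini-Hochberg), with calls needing an adjusted p below 0.05 and a 1.5-fold change. The paired fit (replicate block) added the line, since the same lines were grown in both conditions; within lines, deviations from the condition means correlated at 0.421 to 0.664. Differences between lines were tested as the 3 line terms of that fit. Log2 CPM used a prior count of 2. Intervals are 95% from the fit. Alternatives were DESeq2 1.42.0, limma-voom in limma 3.58.1, the likelihood ratio test, other scalings and filters, and each library or line left out. The fits were tested on simulated counts. The 12 pairs of libraries of a condition all differed beyond sampling noise. Coordinates are from RefSeq for ARS-UCD2.0, where all 112 listed genes matched.

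Members and lists were chosen with earlier results of these data known. Named genes were the 10 members, ATF4, and genes of the wider list called in either fit, up to 3 per group and direction. The 3 genes most like PHGDH, SHMT2 and MAT2A by Pearson r were also named. That ranking left out the members and genes with symbols starting with LOC. Other genes of the wider list, among them ASNS, DDIT3, TYMS, GMPS and MAT2B, were named outside this rule, after their values were seen. Gene families were not checked for shared reads.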

Additional observations from a re-analysis of the deposited data

Results flagged for a closer look

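Among the 4 MEF libraries, that of line E lay apart for MTHFD2, at 91.9 CPM against 45.5 to 47.3 CPM in the other 3. It was the only value set apart in this way among 30 groups of 4 examined (the 10 genes on MEF, in feeder-free conditions and as the ratio of each line), where about 1.5 are given by chance. What set it apart was its gap to the nearest library as a share of the range of the 4, both in log2 CPM, which was 0.946. The same library was also highest for PSAT1, PSPH and SHMT1 on MEF.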

How the results depend on the processing

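Over all settings of the fit on condition alone, and with the replicate block added, 0 of the 10 genes were called in either direction. Of 159 values of single genes under an alternative, those with the replicate block included, 142 kept their direction and 17 reversed. In the paired fit with no fold threshold 1 was called higher (MAT2A) and 1 lower (GLDC). Leaving out a line in the paired fit (replicate block) gave 0 to 2 called higher. For the wider list, 1 was called higher with at least 10 counts in every library, 4 higher and 2 lower with DESeq2, 3 and 1 with the likelihood ratio test, 3 and 2 with the replicate block, and 3 and 4 with the replicate block and no fold threshold; leaving out a library gave 0 to 1 higher, 1 when line A lacked its feeder-free library. The line test passed in 1 to 5 of the 10 with a library left out: SHMT1 was lost without any one library of lines A and E, and 5 passed without the feeder-free library of line E, where PSAT1, PSPH, MTHFD2 and MTHFD1 joined PHGDH and the count over all genes went from 1865 of 15744 to 2944 of 16032, the lowest count being 900 of 16072. With no scaling or no filter 3 of the 10 passed, PHGDH, SHMT1 and MTHFD1, beside 1994 of 15744 and 3379 of 23262 over all genes. PHGDH passed in every setting that kept it, and a filter of 10 counts in every library removed it.

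Reversals were all of values with no call. PHGDH was 0.0226 with no scaling (0.0120 in the paired fit) and 0.25 with limma-voom. With a library left out, the log2 fold change ran from -1.06 to 0.54 for PHGDH, -0.0413 to 0.98 for PSAT1, -0.13 to 0.49 for PSPH, -0.73 to 0.18 for SHMT1, -0.0026 to 0.21 for MTHFD1, -0.19 to 0.22 for MTHFD2 and -0.10 to 0.0245 for MTHFD1L. Leaving out a line in the paired fit, it ran from -0.0699 to 0.61 for PSPH and from -0.18 to 0.27 for MTHFD2, which was 0.0111 there with no scaling. The cause was not tested. With 4 libraries per condition, 0 calls do not show that levels were alike, and PHGDH in lines C and D lies at the counting floor.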
